A study of Homo sapiens with 12 samples.

Results

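The genes described here are the insulin-like growth factor binding proteins IGFBP1 to IGFBP7, the ligands IGF1 and IGF2, and the receptor IGF2R. They were taken by name, as the rows whose Ensembl identifiers map to these symbols, and all 10 were found among the 58302 genes of the count table. RNA was measured in PC3 and 22Rv1, a pair of human prostate cancer cell lines. Lentivirus built on an MSCV vector with an IRES-eGFP cassette delivered either a mutated ETV4 (ETV4AAA), wild-type ETV4 (ETV4WT) or no ETV4 (eGFP control), so that every group carried the vector and eGFP. Cells positive for eGFP and negative for DAPI, a dye that enters dead cells, were sorted 1 week after infection, and their RNA was sequenced. The groups were 22Rv1 ETV4AAA, 22Rv1 ETV4WT, 22Rv1 eGFP, PC3 ETV4AAA, PC3 ETV4WT and PC3 eGFP, with 2 libraries each. ETV4 is an ETS family transcription factor of the PEA3 subgroup. The labels do not say which residues ETV4AAA changes, nor whether the 2 libraries of a group are separate cultures, and the p-values given cover only library-to-library spread, which may be technical.

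IGF1 and IGF2 are secreted peptides that signal through the receptor tyrosine kinase IGF1R and through the insulin receptor. IGFBP1 to IGFBP6 bind them with high affinity outside the cell, carry them, hold them away from the receptor and release them when proteases such as PAPPA cut the binding protein, whereas IGFBP7 is a related protein that binds IGFs weakly. IGF2R, the cation-independent mannose 6-phosphate receptor, takes up IGF2 for degradation and sorts lysosomal enzymes. In the prostate, several binding proteins are made by epithelium or stroma, and the kallikrein KLK3 (prostate-specific antigen) is known to cut IGFBP3.

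Libraries held 41698738 to 51199207 counts. Levels are given as CPM, counts scaled to a common library total with TMM factors, and changes as log2 ratios with their standard error. A change was called at a Benjamini-Hochberg adjusted p under 0.05 in edgeR's quasi-likelihood test across the 23238 genes tested. ETV4 itself stood at 390 and 281 CPM in 22Rv1 ETV4AAA, 385 and 484 CPM in 22Rv1 ETV4WT, and 31.2 and 24.9 CPM in 22Rv1 eGFP. In PC3 it was 223 and 109 CPM in the libraries labelled ETV4AAA, 215 and 112 CPM in those labelled ETV4WT, and 116 and 126 CPM in eGFP. In ETV4 the replicate 2 libraries of both PC3 constructs thus lay below both PC3 controls, against their labels. PC3 results are also given without these 2 libraries. Other genes did not all set them beside the controls. IGF2BP1 had 21.0 to 23.7 CPM in the PC3 libraries labelled ETV4AAA, 59.9 to 61.1 CPM in those labelled ETV4WT and 8.47 to 8.81 CPM in PC3 eGFP. For IGFBP6 and AKT1 the replicates of each construct lay further apart, as given below. Whether the labels hold was not tested. Of 8 markers listed for 22Rv1, 6 were higher in 22Rv1 eGFP than in PC3 eGFP. TRPM8 was lower (0.0206 CPM in 22Rv1 eGFP, 4.33 CPM in PC3 eGFP) and HOXB13 was not called (656 and 605 CPM). The 8 summed to 1620 to 2340 CPM in 22Rv1 against 379 to 814 CPM in PC3, nearly all of the PC3 sum being HOXB13. Among genes of at least 10 CPM, 6.24% differed over 2-fold between the PC3 ETV4AAA replicates and 4.17% between the PC3 ETV4WT replicates, against 0.21% in PC3 eGFP and 0.22% to 0.45% in the 22Rv1 groups.

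The eGFP controls of the lines held different binding protein transcripts. In control 22Rv1 cells nearly all IGFBP transcript was IGFBP2 and IGFBP3, and in control PC3 cells nearly all was IGFBP4 and IGFBP6. Per kilobase of exon, the scale on which genes can be set against each other, IGFBP2 made up 85.5% and 80.1% of the summed IGFBP1 to IGFBP7 CPM per kb in the 2 control 22Rv1 libraries, and IGFBP3 made up 13.1% and 18.0%. In the control PC3 libraries IGFBP4 made up 53.5% and 52.2%, and IGFBP6 45.7% and 46.9%. The summed level was 74.5 and 53.7 CPM per kb in 22Rv1 eGFP, and 95.8 and 104 CPM per kb in PC3 eGFP.

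**Figure D1:**
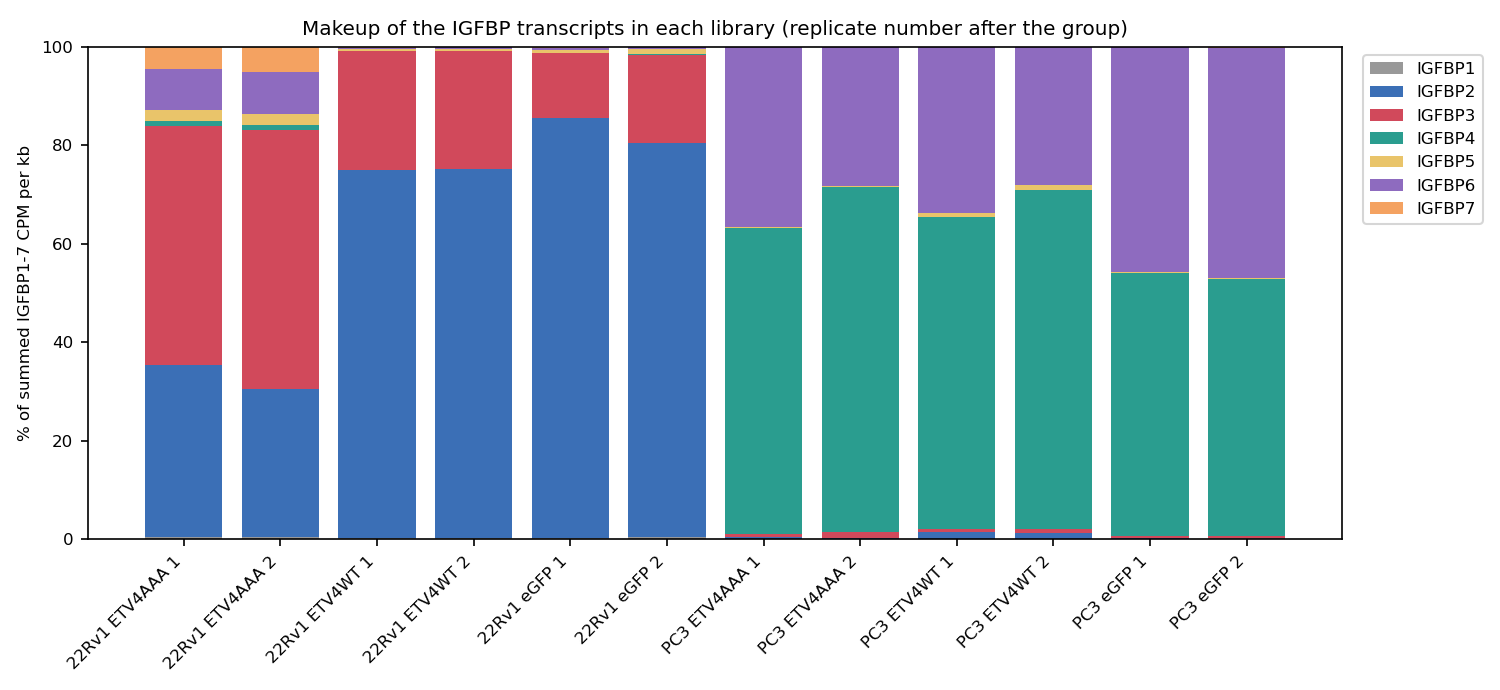
Share of each binding protein in the summed CPM per kb of IGFBP1 to IGFBP7, in percent, with 1 bar per library. IGFBP2 falls to 35.0% and 30.2% of the total in 22Rv1 ETV4AAA, against 85.5% and 80.1% in 22Rv1 eGFP, while IGFBP4 and IGFBP6 fill the PC3 bars.

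Of the 10 genes, 4 were higher and 3 lower in 22Rv1 eGFP than in PC3 eGFP, a contrast in which 70.9% of all genes tested were called, 34.9% higher and 36% lower (49.2% of the calls were higher, and 59.4% under upper-quartile scaling). IGFBP2 (ENSG00000115457, chr2:216632828-216664436, plus strand) had 304 and 205 CPM in 22Rv1 eGFP, against 0.725 and 0.731 CPM in PC3 eGFP, a log2 difference of 8.45 ± 0.411. IGFBP3, the main carrier of IGFs in blood (ENSG00000146674, chr7:45912245-45921874, minus strand, in the GENCODE 29 annotation of GRCh38), had 44.6 and 44.3 CPM in 22Rv1 and 1.83 and 2.15 CPM in PC3 (4.48 ± 0.133). IGFBP5 (ENSG00000115461, chr2:216672105-216695525, minus strand) was also higher in 22Rv1 (2.44 ± 0.219). The reverse held for IGFBP4 (ENSG00000141753, chr17:40443461-40457731, plus strand), with 0.0410 and 0.103 CPM in 22Rv1 eGFP against 113 and 119 CPM in PC3 eGFP (-10.60 ± 0.338), and for IGFBP6, with 0.472 and 0.268 CPM in 22Rv1 against 58.9 and 65.6 CPM in PC3 (-7.38 ± 0.463). IGFBP6 (ENSG00000167779, chr12:53097436-53102345, plus strand) binds IGF2 in preference to IGF1. IGF2R was lower in 22Rv1 (-1.17 ± 0.157), and adjusted p-values of these 6 genes ran between 8.42e-11 and 3.08e-05 in edgeR's test. The libraries of the 2 lines did not overlap for any of them.

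IGF1 counts totalled 49 in 22Rv1 eGFP and 0 in PC3 eGFP, at least 16.1-fold higher in 22Rv1 when a floor of 3 counts over the group is set for PC3. Ligand transcripts were scarce throughout: per kb, IGF1 averaged at most 0.0760 CPM and IGF2 at most 0.0520 CPM in any group. IGF2 (adjusted p = 0.27), IGFBP1 (0.261) and IGFBP7 (0.458) were not called between the control lines in edgeR's test.

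**Figure D2:**
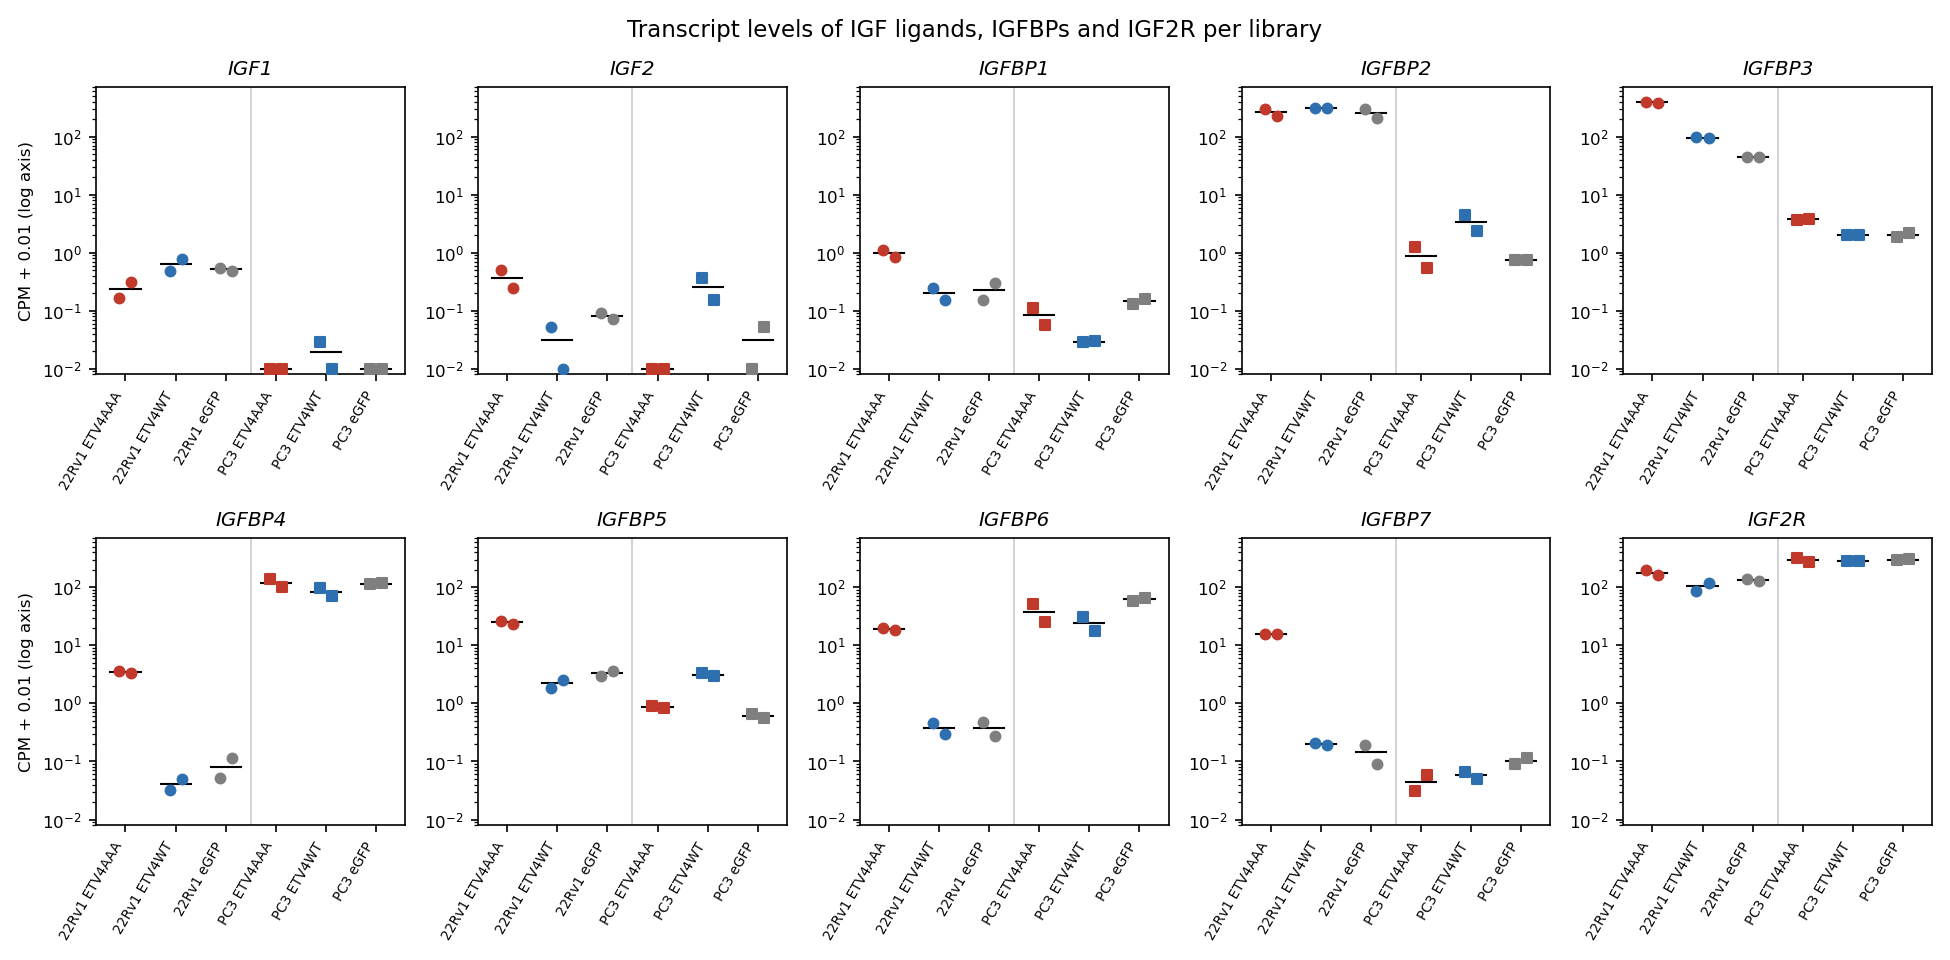
CPM plus 0.01 on a log axis for each of the 10 genes, with 1 point per library and a bar at the group mean of 2 libraries, circles for 22Rv1 and squares for PC3. IGFBP7 lies at 15.5 and 15.8 CPM in 22Rv1 ETV4AAA and under 0.2 CPM in the other 10 libraries.

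Most binding protein transcripts were higher in 22Rv1 ETV4AAA. IGFBP3, IGFBP4, IGFBP5, IGFBP6, IGFBP7, IGFBP1 and IGF2 were higher than in eGFP controls, 7 of the 10 genes, and none was called lower. Over all genes tested 31.8% were called in this contrast, 17.4% higher and 14.4% lower. IGFBP7 and IGF2 would not have passed the low-count filter without 22Rv1 ETV4AAA, so a difference there was built into their being tested. IGFBP1 also reached the filter's cutoff in 22Rv1 eGFP replicate 2 (14 counts) and 22Rv1 ETV4WT replicate 1 (11 counts), enough to be tested. Of the other genes, IGFBP1, IGFBP3, IGFBP4, IGFBP5 and IGFBP6 were called, and IGFBP2, IGF1 and IGF2R were not.

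Per kb, IGFBP3 was the highest of the 10 genes in 22Rv1 ETV4AAA, at 84.8 CPM on average. It had 394 and 381 CPM in 22Rv1 ETV4AAA against 44.6 and 44.3 CPM in 22Rv1 eGFP. The replicates lay close together and the groups far apart, a log2 change of 3.12 ± 0.118 (adjusted p = 4.3e-09, edgeR). IGFBP7 (ENSG00000163453, chr4:57030773-57110385, minus strand), known as a protein of vessel basement membranes, had 15.5 and 15.8 CPM against 0.185 and 0.0823 CPM. It had the largest change of the 10 genes in this contrast, 6.84 ± 0.271 (adjusted p = 6.19e-09, edgeR), from counts of 1363 in 22Rv1 ETV4AAA and 13 in 22Rv1 eGFP. The exons of IGFBP7 share 270 bases with POLR2B and 94 with IGFBP7-AS1 on the opposite strand, and those of IGFBP5 share 298 with AC007563.2. Reads there cannot be assigned without the strand setting.

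IGFBP6 and IGFBP4, the binding proteins that PC3 makes and control 22Rv1 cells nearly lack, both rose in 22Rv1 ETV4AAA. IGFBP6 had 19.7 and 18.1 CPM in ETV4AAA against 0.472 and 0.268 CPM in eGFP (5.67 ± 0.446, adjusted p = 1.49e-06, edgeR). This was still under the 58.9 and 65.6 CPM of control PC3 cells. IGFBP4, which inhibits IGF action until PAPPA cuts it, had 3.66 and 3.37 CPM in ETV4AAA against 0.0410 and 0.103 CPM in eGFP (5.56 ± 0.362, adjusted p = 2.87e-07, edgeR). Its level in 22Rv1 ETV4AAA remained far below the 113 and 119 CPM of PC3 eGFP.

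IGFBP5, a binding protein that also adheres to extracellular matrix, had 26.4 and 23.6 CPM in 22Rv1 ETV4AAA against 2.99 and 3.56 CPM in 22Rv1 eGFP (2.93 ± 0.188, adjusted p = 2.54e-07, edgeR). IGFBP1, known mainly as an insulin-regulated product of liver and decidua, rose at a low level, 1.09 and 0.831 CPM against 0.144 and 0.288 CPM (2.14 ± 0.381, adjusted p = 0.00107, edgeR). IGF2 had 32 counts in ETV4AAA and 7 in eGFP (2.30 ± 0.756, adjusted p = 0.0386, edgeR), a call that DESeq2's Wald test did not make (adjusted p = 0.0975) and that was lost when any 1 of the 22Rv1 libraries was left out (adjusted p between 0.0515 and 0.286). IGFBP2, the most abundant binding protein of the control cells per kb, was not called: 295 and 228 CPM in ETV4AAA overlapped 304 and 205 CPM in eGFP (adjusted p = 0.949, edgeR).

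IGF2R had 198 and 161 CPM in 22Rv1 ETV4AAA and 138 and 129 CPM in 22Rv1 eGFP, without overlap, but missed the threshold (0.43 ± 0.155, adjusted p = 0.0553, edgeR). It passed with DESeq2's size factors (adjusted p = 0.0417), with 22Rv1 fitted alone (0.0428) and without the low-count filter (0.0123). IGF1 was not called (-1.12 ± 0.463, adjusted p = 0.0951), with 0.155 and 0.308 CPM in ETV4AAA against 0.533 and 0.474 CPM in eGFP. In the GENCODE 29 annotation 6693 of the 8122 exonic bases of IGF1 are overlapped by HELLPAR on the opposite strand, and 5144 of the 6979 exonic bases of IGF2 by a second IGF2 entry and 1460 by INS-IGF2, so the counts of both ligands are uncertain.

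With these changes IGFBP3 overtook IGFBP2 on the per-kb scale. IGFBP3 made up 48.6% and 52.6% of the summed IGFBP CPM per kb in 22Rv1 ETV4AAA, and IGFBP2 35.0% and 30.2%. IGFBP6 contributed 8.26% and 8.48%, IGFBP7 4.53% and 5.16%, and IGFBP5 2.32% and 2.31%. The summed level was 177 and 159 CPM per kb in ETV4AAA, against 74.5 and 53.7 CPM per kb in eGFP. In bulk RNA, more cells expressing a gene and more RNA per cell cannot be told apart.

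Promoters of IGFBP3, IGFBP4, IGFBP5 and IGFBP6, which rose together in 22Rv1 ETV4AAA, are shown with a promoter of IGFBP2, which was not called in that contrast. Each sequence holds the 250 bases before a RefSeq transcription start in GRCh38.p14, read on the gene's strand. They lie at chr7:45921273-45921522 (minus strand) for IGFBP3, chr17:40443200-40443449 (plus) for IGFBP4, chr2:216695550-216695799 (minus) for IGFBP5, chr12:53097417-53097666 (plus) for IGFBP6 and chr2:216632578-216632827 (plus) for IGFBP2. The RefSeq starts of IGFBP3 and IGFBP6 lie inside the GENCODE 29 spans of these genes. Capitals mark GGAA, the core that ETS factors recognise, on either strand (GGAA or TTCC).
IGFBP3: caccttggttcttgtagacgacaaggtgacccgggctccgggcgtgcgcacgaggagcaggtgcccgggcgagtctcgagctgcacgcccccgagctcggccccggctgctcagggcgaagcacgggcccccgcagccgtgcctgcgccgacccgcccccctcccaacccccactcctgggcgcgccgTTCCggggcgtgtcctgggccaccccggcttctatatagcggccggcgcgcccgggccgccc
IGFBP4: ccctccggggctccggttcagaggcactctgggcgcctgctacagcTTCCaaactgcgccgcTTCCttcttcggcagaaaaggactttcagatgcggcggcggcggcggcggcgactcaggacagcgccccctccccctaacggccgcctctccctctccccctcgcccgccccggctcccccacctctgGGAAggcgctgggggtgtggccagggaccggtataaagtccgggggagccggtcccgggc
IGFBP5: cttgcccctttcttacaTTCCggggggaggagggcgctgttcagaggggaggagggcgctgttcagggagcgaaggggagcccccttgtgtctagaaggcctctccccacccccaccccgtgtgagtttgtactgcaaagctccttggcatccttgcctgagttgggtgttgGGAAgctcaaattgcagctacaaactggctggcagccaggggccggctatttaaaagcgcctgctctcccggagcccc
IGFBP6: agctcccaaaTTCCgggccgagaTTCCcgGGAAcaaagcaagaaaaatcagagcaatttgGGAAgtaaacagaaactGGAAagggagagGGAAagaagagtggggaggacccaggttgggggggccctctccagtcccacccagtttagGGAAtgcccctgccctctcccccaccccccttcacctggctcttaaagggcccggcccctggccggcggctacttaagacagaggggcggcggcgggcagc
IGFBP2: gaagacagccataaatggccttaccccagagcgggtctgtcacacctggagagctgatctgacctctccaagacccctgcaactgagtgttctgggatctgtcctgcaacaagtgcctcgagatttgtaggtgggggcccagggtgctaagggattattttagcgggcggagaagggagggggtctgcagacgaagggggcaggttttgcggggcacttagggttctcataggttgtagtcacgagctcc

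The 4 promoters of the genes that rose held 1 (IGFBP3), 3 (IGFBP4), 2 (IGFBP5) and 7 (IGFBP6) GGAA cores, and the IGFBP2 promoter shown held 0. GGAA is common: 92.7% of the 35116 promoters in the RefSeq table held it on at least one strand, with a mean of 2.93 matches. The longer PEA3 motif AGGAAG, which contains GGAA, was found in 28.7% of all promoters and in 2 of the 10 promoters listed for 7 of the genes. These were IGFBP4, 189 bases before the start, and IGF2R, 155 bases before the start, both on the reverse strand. The other 2 listed promoters of IGFBP2 held 3 and 1 GGAA cores. These matches describe letters only, and no binding was measured.

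Fewer of these genes differed between 22Rv1 ETV4WT and 22Rv1 eGFP. IGFBP3 alone of the 10 genes was called, and over all genes tested 1.5% were called, 1.06% higher and 0.439% lower. IGFBP3 had 97.0 and 95.2 CPM in 22Rv1 ETV4WT against 44.6 and 44.3 CPM in 22Rv1 eGFP, a change of 1.11 ± 0.11 (adjusted p = 0.000229, edgeR). Its share of the IGFBP CPM per kb was 24.2% and 24.0% in ETV4WT, against 13.1% and 18.0% in eGFP. IGFBP5 was not called, with 1.87 and 2.53 CPM in ETV4WT and 2.99 and 3.56 CPM in eGFP (-0.57 ± 0.191, adjusted p = 0.197, edgeR). IGFBP7 had 0.196 and 0.184 CPM in ETV4WT and 0.185 and 0.0823 CPM in eGFP (adjusted p = 0.694), and IGFBP6 had 0.457 and 0.286 CPM in ETV4WT and 0.472 and 0.268 CPM in eGFP (adjusted p = 1).

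Set directly against each other, ETV4AAA and ETV4WT differed in 9 of the 10 genes in 22Rv1, 8 higher and 1 lower in ETV4AAA, where 23.5% of all genes tested were called, 13.9% higher and 9.62% lower. IGFBP7 and IGF2 would not have entered the test without 22Rv1 ETV4AAA, so a difference in that direction was built into their being tested. IGFBP1 would have entered without 22Rv1 ETV4AAA, and IGF1 without 22Rv1 ETV4WT. ETV4 itself was not called between these groups (adjusted p = 0.471, edgeR). IGFBP3 differed by 2.01 ± 0.113, IGFBP5 by 3.50 ± 0.195, IGFBP6 by 5.67 ± 0.447 and IGFBP7 by 6.35 ± 0.259 (log2, adjusted p between 1.36e-08 and 1.97e-06). IGFBP4 had 307 counts in ETV4AAA and 3 in ETV4WT, a ratio of 111 with a 95% counting interval of 37.8 to 543 (adjusted p = 2.61e-07). IGFBP1 (2.32 ± 0.392, adjusted p = 0.000973) and IGF2R (0.78 ± 0.156, adjusted p = 0.00308) were higher as well.

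IGF2R had 198 and 161 CPM in ETV4AAA and 87.7 and 121 CPM in ETV4WT. IGF2 counts were 32 in ETV4AAA and 2 in ETV4WT, a ratio of 17.4 with an interval of 4.44 to 150 (adjusted p = 0.0121). That call was lost without ETV4AAA replicate 1 (adjusted p = 0.119) or ETV4WT replicate 2 (0.107). IGF1 was the 1 gene lower in ETV4AAA, with 20 counts against 59 (-1.42 ± 0.452, adjusted p = 0.0472, edgeR). DESeq2 did not call it (adjusted p = 0.194), and leaving out any 1 of the 22Rv1 libraries (adjusted p between 0.0597 and 0.272) or either PC3 eGFP library (0.0564 and 0.0567) ended the call.

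**Figure D3:**
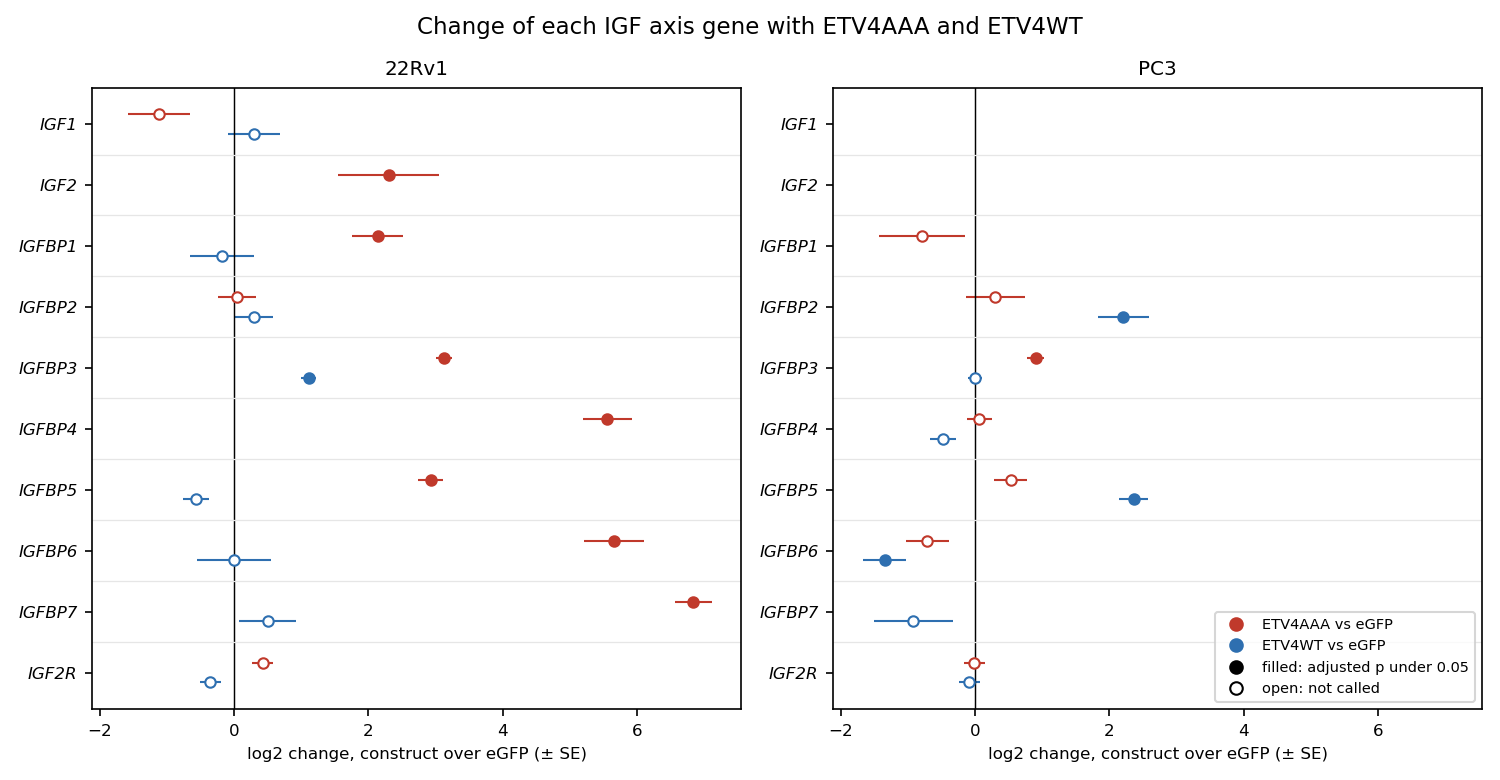
Log2 change of each gene over eGFP with its standard error, ETV4AAA in red above ETV4WT in blue, filled where the adjusted p is under 0.05, from 2 libraries per group. Pairs in which either group held 3 counts or fewer are not drawn. In 22Rv1 the ETV4AAA points of IGFBP3 to IGFBP7 lie between 2.93 and 6.84, and in PC3 the points of IGFBP2 and IGFBP5 for the libraries labelled ETV4WT lie at 2.21 and 2.36.

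In PC3 the construct with more calls was the other one. In the libraries labelled ETV4WT, IGFBP5, IGFBP2 and IGF2 were higher than in PC3 eGFP, and IGFBP6 and IGFBP1 were lower. These are 5 of the 10 genes, in a contrast with 23.4% of all genes called, 12.7% higher and 10.7% lower (54.4% of the calls were higher, and 69.2% under upper-quartile scaling). IGFBP5 had 3.27 and 2.93 CPM in the libraries labelled ETV4WT against 0.644 and 0.559 CPM in eGFP (2.36 ± 0.219, adjusted p = 1.66e-05, edgeR). IGFBP2 had 4.37 and 2.37 CPM against 0.725 and 0.731 CPM (2.21 ± 0.380, adjusted p = 0.00142, edgeR). For IGFBP5 the libraries labelled ETV4WT overlapped those of 22Rv1 eGFP, at 2.99 and 3.56 CPM, whereas IGFBP2 remained far below its 304 and 205 CPM there.

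IGF2 had 26 counts in the PC3 libraries labelled ETV4WT and 2 in PC3 eGFP, a ratio of 12.1 with an interval of 3.02 to 105 (adjusted p = 0.0319, edgeR). It had 0 counts in the libraries labelled ETV4AAA. The call was lost without PC3 eGFP replicate 1 (adjusted p = 0.189), PC3 eGFP replicate 2 (0.0625) or the labelled ETV4WT replicate 1 (0.155), and without either 22Rv1 eGFP library (0.0553 and 0.0554). IGFBP1 had 2 counts in the libraries labelled ETV4WT and 13 in eGFP, a ratio of 0.143 (0.0157 to 0.631, adjusted p = 0.0347), and lost its call without any 1 of these 4 libraries (adjusted p between 0.0912 and 0.156) and in DESeq2 (0.0925).

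IGFBP6 had 31.2 and 17.6 CPM in the PC3 libraries labelled ETV4WT against 58.9 and 65.6 CPM in eGFP (-1.35 ± 0.326, adjusted p = 0.0111, edgeR). In the libraries labelled ETV4AAA it had 50.9 and 25.0 CPM and was not called (-0.71 ± 0.322, adjusted p = 0.302). The replicate 2 library was the lower one in both constructs. The ETV4WT call was lost without PC3 eGFP replicate 2 (adjusted p = 0.0712), without the labelled ETV4WT replicate 2 (0.088) and with PC3 fitted alone (0.0552), and without the labelled ETV4AAA replicate 1 the ETV4AAA change became -1.31 (0.0277). Other genes also stood lower in these libraries, among them AKT1, with 189 and 82.8 CPM in the libraries labelled ETV4AAA, 144 and 67.9 CPM in those labelled ETV4WT, and 186 and 213 CPM in eGFP. Without both replicate 2 libraries, IGFBP6 in ETV4WT moved to -0.90 (adjusted p = 0.00406), IGFBP5 to 2.53 (1.33e-05), IGFBP2 to 2.67 (1.97e-05) and IGF2 to a fitted 4.01 (0.0136). IGFBP1 was then no longer called (0.146). Whether what sets these libraries apart contributed to the IGFBP6 values was not tested. It was not confined to PC3. Over genes of at least 10 CPM, replicate 2 minus replicate 1 differences in PC3 ETV4AAA and ETV4WT correlated with those in 22Rv1 eGFP (r = 0.836 and 0.839). They also correlated with those in 22Rv1 ETV4AAA (0.648 and 0.632), and negatively with those in 22Rv1 ETV4WT (-0.309 and -0.279). The part of such differences in the 22Rv1 values was not tested. IGFBP4, the other main binding protein of PC3, had 95.9 and 70.6 CPM in PC3 libraries labelled ETV4WT, 141 and 101 CPM in those labelled ETV4AAA, and 113 and 119 CPM in eGFP. It missed the threshold in ETV4WT (-0.48 ± 0.188, adjusted p = 0.0877), and passed it with the replicate number as a block (-0.50, 0.0456), without the labelled ETV4WT replicate 1 (-0.71, 0.0267) and without the labelled ETV4AAA replicate 1 (-0.48, 0.0451).

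The PC3 libraries labelled ETV4AAA differed from eGFP in IGFBP3 alone among the 10 genes, against 3.69% of all genes tested, 2.45% higher and 1.24% lower. IGFBP3 had 3.60 and 3.85 CPM in ETV4AAA against 1.83 and 2.15 CPM in eGFP (0.90 ± 0.130, adjusted p = 0.00229, edgeR). The libraries labelled ETV4WT held 2.01 and 1.97 CPM, within the range of the controls (adjusted p = 1). Without both replicate 2 libraries the IGFBP3 change in ETV4AAA was 0.85 (adjusted p = 0.0125). It was not called without PC3 eGFP replicate 1 (0.0699) or with PC3 fitted alone (0.0552).

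Between the PC3 libraries labelled ETV4AAA and those labelled ETV4WT, IGFBP3 was higher (0.90 ± 0.129, adjusted p = 0.00073) and IGFBP5 (-1.83 ± 0.211, adjusted p = 0.000152), IGFBP2 (-1.91 ± 0.372, adjusted p = 0.00572) and IGF2 were lower. Of all genes tested 11% were called in this contrast, 3.65% higher and 7.32% lower (33.3% of the calls were higher, and 17% under upper-quartile scaling). IGF2, with 0 counts in ETV4AAA and 26 in ETV4WT, was at least 7.57-fold lower (adjusted p = 0.0215), a call lost without either library labelled ETV4AAA (0.0897 and 0.0822) or the labelled ETV4WT replicate 1 (0.1). The same 4 genes were called without both replicate 2 libraries, with adjusted p between 0.00124 and 0.0418 in edgeR. IGF2R stayed at 276 to 317 CPM in every PC3 library and was called in no PC3 contrast.

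Neighbouring binding protein genes did not always change together. IGFBP1 and IGFBP3 lie on chromosome 7, 18576 bases apart, and both rose in 22Rv1 ETV4AAA, while in the PC3 libraries labelled ETV4WT IGFBP1 was lower and IGFBP3 was not called. IGFBP2 and IGFBP5 lie on chromosome 2, 7668 bases apart, with their 3′ ends facing each other. Both rose in the PC3 libraries labelled ETV4WT, whereas in 22Rv1 ETV4AAA IGFBP5 rose and IGFBP2 was not called.

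The response to ETV4AAA was tested for a difference between the lines with an interaction term. The change over eGFP was larger in 22Rv1 than in PC3 for 6 of the 10 genes and smaller for none, with 16.2% of all genes tested called, 9.48% higher and 6.73% lower. IGFBP7 passed the low-count filter only through 22Rv1 ETV4AAA, so a larger change there was built into its being tested. The differences of the 2 log2 changes were 2.22 ± 0.171 for IGFBP3, 2.40 ± 0.307 for IGFBP5, 2.93 ± 0.747 for IGFBP1, 5.50 ± 0.427 for IGFBP4, 6.38 ± 0.551 for IGFBP6 and 8.27 ± 0.787 for IGFBP7. For IGFBP7 the PC3 libraries labelled ETV4AAA held 3 counts and PC3 eGFP 9, so the fitted PC3 change in that difference is imprecise. The IGFBP1 difference (adjusted p = 0.0188) was lost without both PC3 replicate 2 construct libraries (0.0696) and without 5 of the 12 libraries left out singly, 22Rv1 eGFP replicate 1, 22Rv1 ETV4AAA replicate 1, either PC3 eGFP library or the labelled PC3 ETV4AAA replicate 2 (0.0512 to 0.103). The other 5 were called in each of these fits.

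For ETV4WT the sign differed by gene. The change was larger in 22Rv1 for IGFBP3 (1.11 ± 0.173, adjusted p = 0.00146) and smaller for IGFBP5 (-2.93 ± 0.292, adjusted p = 6.62e-05) and IGFBP2 (-1.92 ± 0.474, adjusted p = 0.0213), with 12.5% of all genes tested called, 4.92% higher and 7.57% lower (39.4% of the calls were higher, and 24.4% under upper-quartile scaling). The IGFBP2 difference was lost in limma-voom (adjusted p = 0.0504) and without any 1 of 6 libraries, namely 22Rv1 eGFP replicate 1, either 22Rv1 ETV4WT library, either PC3 eGFP library or the labelled PC3 ETV4WT replicate 1 (0.0512 to 0.0897). ETV4 itself rose over its controls by 3.58 ± 0.367 with ETV4AAA and 3.95 ± 0.373 with ETV4WT in 22Rv1, and was not called in PC3 (adjusted p = 0.495 for the libraries labelled ETV4AAA and 0.384 for ETV4WT). The line and the level of ETV4 reached therefore cannot be told apart in these differences.

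Some markers of the other line moved in 22Rv1 ETV4AAA alongside the binding proteins. Of 7 markers listed for PC3, 6 were lower in 22Rv1 eGFP than in PC3 eGFP, and LGALS1 was not called (236 CPM in 22Rv1 eGFP, 183 CPM in PC3 eGFP). With ETV4AAA 5 of the 7 rose over 22Rv1 eGFP (VIM, CAV1, CAV2, CD44 and ANXA1), where 17.4% of all genes tested were higher. CD44 made up most of the summed rise, with 429 CPM in 22Rv1 ETV4AAA against 124 CPM in 22Rv1 eGFP. VIM, CAV1, CAV2 and ANXA1 were at 12.1, 10.8, 1.82 and 2.27 CPM in 22Rv1 ETV4AAA, against 477, 182, 39.3 and 322 CPM in PC3 eGFP. The summed level of all 7 was 665 and 645 CPM in ETV4AAA, 589 and 537 CPM in ETV4WT, and 400 and 343 CPM in eGFP, against 1580 to 2070 CPM in the PC3 libraries. AXL, at 8.15 to 12.5 CPM in PC3, was at 0 or 1 count in every 22Rv1 library. IGFBP7 was at most 0.107 CPM in any PC3 library, against 15.5 and 15.8 CPM in 22Rv1 ETV4AAA. In 22Rv1 ETV4AAA, markers of immune, endothelial and fibroblast cells summed to 26.6 and 23.4 CPM. They summed to 9.99 and 11.5 CPM in 22Rv1 ETV4WT, and 11 and 9.80 CPM in 22Rv1 eGFP. Of these 14 markers 9 were tested, and 4 were called higher and 1 lower over eGFP with ETV4AAA. Over all genes tested 17.4% were higher and 14.4% lower. The higher markers included KDR, at 402 counts in 22Rv1 ETV4AAA and 0 in 22Rv1 eGFP. PTPRC and CD3E were at 0 to 2 counts in every 22Rv1 library. Liver genes summed to 8.01 and 10.5 CPM in ETV4AAA, 26.1 and 25.4 CPM in ETV4WT, and 96.9 and 117 CPM in eGFP, nearly all of it ALB. The part of these markers in the binding protein changes was not tested.

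Of 17 receptor and signalling genes downstream of the ligands, 3 were higher and 3 lower in 22Rv1 ETV4AAA than in eGFP, a share near the 17.4% higher and 14.4% lower over all genes tested, with a median log2 change of 0.0171 against -0.00117 over all genes tested. IGF1R, the receptor through which both ligands signal, had 44.5 and 33.5 CPM in 22Rv1 ETV4AAA against 76.6 and 67.6 CPM in 22Rv1 eGFP (-0.89 ± 0.179, adjusted p = 0.00251, edgeR). The insulin receptor INSR and the adaptor IRS1 were also lower, and SHC1, FOXO4 and IRS4 were higher, IRS4 at under 1 CPM; of these, all but IRS4 are named after their values were seen. ETV4WT called 1 of the 17 in 22Rv1, where 1.5% of all genes were called, GRB10 at -0.87 ± 0.121 (adjusted p = 0.00306, edgeR, also named after its values were seen), with a list median of -0.0411 against 0.00998 over all genes.

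In the PC3 libraries labelled ETV4WT, 5 of the 17 were higher and 1 lower (median 0.0395, against 0 over all genes), where 12.7% of all genes tested were higher and 10.7% lower. IRS4, an adaptor that couples the receptors to PI3 kinase, had 80.1 and 84.3 CPM against 12.6 and 13.1 CPM in eGFP (2.68 ± 0.148, adjusted p = 9.01e-07, edgeR), and in the libraries labelled ETV4AAA it had 17.4 and 17.1 CPM. IGF1R had 20.3 and 20.4 CPM in the libraries labelled ETV4WT against 11.7 and 11 CPM in eGFP (0.84 ± 0.182, adjusted p = 0.00581, edgeR). In the libraries labelled ETV4AAA 1 of the 17 was higher and 1 lower, where 2.45% of all genes tested were higher and 1.24% lower. IRS2 was higher in them (0.81 ± 0.153) and in those labelled ETV4WT (0.59 ± 0.153). PIK3CA, a catalytic subunit of PI3 kinase, and the kinase AKT1 were not called over eGFP with either construct in either line.

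**Figure D4:**
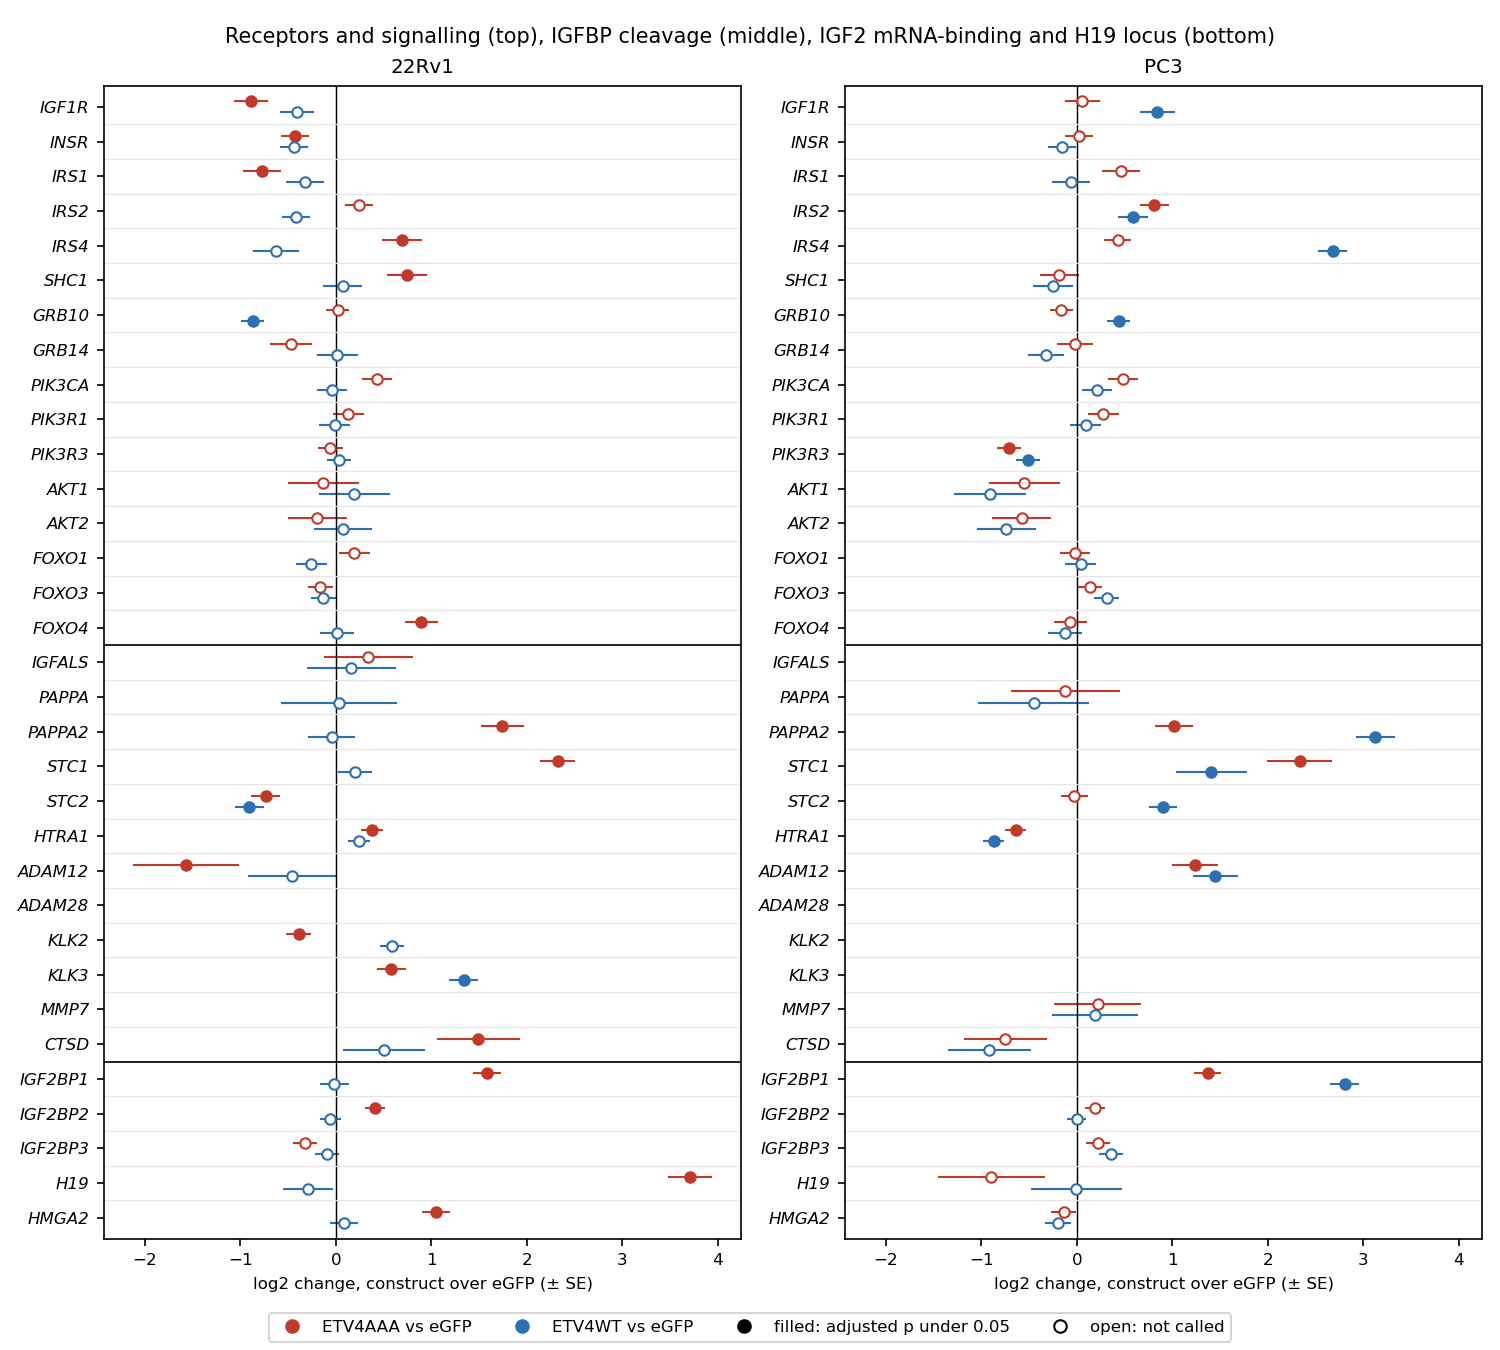
Log2 change over eGFP with its standard error for 33 genes in 3 lists, ETV4AAA in red above ETV4WT in blue, filled where the adjusted p is under 0.05, from 2 libraries per group. Pairs in which either group held 3 counts or fewer are not drawn. H19 lies at 3.71 for ETV4AAA in 22Rv1, and PAPPA2, IGF2BP1 and IRS4 lie between 2.68 and 3.13 for the PC3 libraries labelled ETV4WT.

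Genes that cut binding proteins or modulate that cutting were tested for 11 of 12 list members. In 22Rv1 ETV4AAA 6 were higher and 4 lower than in eGFP, where 17.4% of all genes tested were higher and 14.4% lower (median 0.377, against -0.00117 over all genes). STC1, a stanniocalcin known to inhibit PAPPA and named after its values were seen, had 17.5 and 19 CPM in ETV4AAA against 3.38 and 3.91 CPM in eGFP (2.32 ± 0.181), and its relative STC2 fell (-0.74 ± 0.151, adjusted p = 0.00287, edgeR). STC2 also fell in 22Rv1 ETV4WT (-0.91 ± 0.152, adjusted p = 0.0111). KLK3, the protease that cuts IGFBP3, had 31.1 and 29.2 CPM in 22Rv1 ETV4AAA, 53.3 and 48.6 CPM in 22Rv1 ETV4WT, and 20.5 and 19.8 CPM in 22Rv1 eGFP. It rose in both (0.58 ± 0.152 with ETV4AAA and 1.34 ± 0.153 with ETV4WT). KLK2 was slightly lower with ETV4AAA (-0.39 ± 0.129, adjusted p = 0.0423). PAPPA had 2 counts in 22Rv1 ETV4AAA and 18 in 22Rv1 eGFP, a ratio of 0.124 with an interval of 0.014 to 0.518 (adjusted p = 0.037). MMP7, a matrix protease, had 109 counts in 22Rv1 ETV4AAA and 0 in eGFP, at least 40.5-fold higher over a floor of 3 counts. PAPPA and MMP7 too were named after their values were seen.

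In the PC3 libraries labelled ETV4WT, 5 of these genes were higher and 1 lower (median 0.431, against 0 over all genes), with the same 12.7% and 10.7% over all genes. In those labelled ETV4AAA, 3 were higher and 1 lower, where 2.45% of all genes tested were higher and 1.24% lower. In 22Rv1 ETV4WT 1 was higher and 1 lower, where 1.06% of all genes tested were higher and 0.439% lower. STC2 in the PC3 libraries labelled ETV4WT had 373 and 346 CPM against 190 and 195 CPM in PC3 eGFP (0.90 ± 0.145, adjusted p = 0.000914, edgeR). HTRA1, a secreted serine protease, had 94.6 and 88.1 CPM in the same libraries against 170 and 165 CPM in PC3 eGFP (-0.87 ± 0.112, adjusted p = 0.000179, edgeR). HTRA1 was also lower in the libraries labelled ETV4AAA (-0.64 ± 0.111, adjusted p = 0.00728). PAPPA2, a metalloprotease known to cut IGFBP3 and IGFBP5 and named after its values were seen, had 14.8 and 19.5 CPM in PC3 libraries labelled ETV4WT, 3.70 and 4.26 CPM in those labelled ETV4AAA, and 2.19 and 1.72 CPM in eGFP. Its change was 3.13 ± 0.201 with ETV4WT and 1.02 ± 0.199 with ETV4AAA, and 1.75 ± 0.223 with ETV4AAA in 22Rv1. KLK3 had 0 counts in all 6 PC3 libraries, and KLK2 had 6 counts in those labelled ETV4WT and 0 in PC3 eGFP, at least 1.86-fold higher and 1 of the 5 counted above.

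Of 5 genes that bind IGF2 mRNA or share the IGF2 locus or its control, 4 rose in 22Rv1 ETV4AAA (median 1.05, against -0.00117 over all genes), where 17.4% of all genes tested were higher. None was called in 22Rv1 ETV4WT, where 1.5% of all genes were. H19, the noncoding RNA gene next to IGF2, had 12.4 and 12.7 CPM in ETV4AAA against 0.923 and 0.988 CPM in eGFP (3.71 ± 0.230, adjusted p = 1.91e-07, edgeR). IGF2BP1, which stabilises IGF2 and other messages, had 14.8 and 13.5 CPM in ETV4AAA against 4.62 and 4.84 CPM in eGFP (1.58 ± 0.148). In PC3 it had 23.7 and 21.0 CPM in the libraries labelled ETV4AAA, 59.9 and 61.1 CPM in those labelled ETV4WT, and 8.47 and 8.81 CPM in eGFP, so that no groups overlapped. Its change over eGFP was 1.37 ± 0.144 in the libraries labelled ETV4AAA and 2.81 ± 0.150 in those labelled ETV4WT. HMGA2, which promotes IGF2BP2 transcription, rose in 22Rv1 ETV4AAA (1.05 ± 0.144), as did IGF2BP2 (0.41 ± 0.108). H19 was not called in the PC3 contrasts, where it stood under 0.2 CPM.

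Of 7 genes of mannose 6-phosphate sorting, the lysosomal side of IGF2R function, 2 were higher and 1 lower in 22Rv1 ETV4AAA (median -0.158), where 31.8% of all genes tested were called. None was called in 22Rv1 ETV4WT, where 1.5% of all genes tested were. None was called in the PC3 libraries labelled ETV4AAA, where 3.69% of all genes were. In those labelled ETV4WT 1 was lower, where 10.7% of all genes were lower. GNPTAB, a subunit of the enzyme that starts the mannose 6-phosphate tag, fell in 22Rv1 ETV4AAA (-0.90 ± 0.147, adjusted p = 0.000602, edgeR), and GNPTG, another subunit of the same enzyme, rose (1.05 ± 0.254, adjusted p = 0.00751).

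Among 11 genes of IGFBP-related proteins, whose products share a domain with the binding proteins, 1 rose and 3 fell in 22Rv1 ETV4AAA (median -0.154), where 31.8% of all genes tested were called. In the PC3 libraries labelled ETV4WT 3 rose and 2 fell (median 0.0437), with 23.4% of all genes called. CCN3 had 10.5 and 11 CPM in those libraries against 35.3 and 35.9 CPM in PC3 eGFP (-1.73 ± 0.143, adjusted p = 8.14e-06, edgeR). In 22Rv1 ETV4AAA, CCN1 (-0.63 ± 0.156) and CCN3 (-0.69 ± 0.186) fell and CRIM1 rose (0.44 ± 0.12). None of the 11 was called in 22Rv1 ETV4WT, where 1.5% of all genes tested were. In the PC3 libraries labelled ETV4AAA 1 was higher and 1 lower, where 2.45% of all genes were higher and 1.24% lower.

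Genes with the pattern most like a member were sought by Pearson's r of log2(CPM + 0.05) over the 12 libraries after subtraction of each line's mean, among 11762 protein-coding genes. These values are descriptions, since the libraries share lines and constructs. IGFBP3 was most like TOX (r = 0.979) and A2M (0.978). TOX averaged 57.4 ± 1.23 CPM in 22Rv1 ETV4AAA, 6.65 ± 0.0195 CPM in 22Rv1 ETV4WT and 2.69 ± 0.414 CPM in 22Rv1 eGFP (SD, n = 2 each), the same order as IGFBP3. IGFBP7 was most like PLB1 (0.994) and CDH12 (0.991), which separate 22Rv1 ETV4AAA from the other 22Rv1 groups. CDH12, unlike IGFBP7, was also present in PC3, at 14.7 to 25.8 CPM on average.

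IGFBP5 was most like DACT1 (0.992) and HOXB9 (0.989). Both were highest in 22Rv1 ETV4AAA among 22Rv1 groups and in the libraries labelled ETV4WT among PC3 groups, as IGFBP5 was. HOXB9 averaged 109 ± 1.22 CPM in 22Rv1 ETV4AAA, 7.59 ± 0.444 CPM in 22Rv1 ETV4WT and 9.72 ± 0.577 CPM in 22Rv1 eGFP (SD, n = 2 each). In PC3 it averaged 4.42 ± 0.059 CPM in the libraries labelled ETV4AAA, 26.5 ± 2.17 CPM in those labelled ETV4WT and 3.65 ± 0.433 CPM in eGFP. In the order of all 6 groups 22Rv1 ETV4AAA was highest and PC3 eGFP lowest for IGFBP5, and 22Rv1 eGFP and the PC3 libraries labelled ETV4WT were the only neighbours in it whose libraries overlapped.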

How the data were processed

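Raw counts per gene from 12 libraries of sorted PC3 and 22Rv1 cells were used as the authors deposited them in 1 table of 58302 genes. The submitters' processing notes name FastQC 0.11.9, STAR 2.5.3a and the GRCh38 build. For the counting program, its annotation and its strand setting: not given in the sources used here. Of the gene identifiers, 58039 (99.55%) matched GENCODE 29, which gave symbols, exon lengths and overlaps. The 10 genes and the gene lists were chosen with earlier results of these data known.

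Libraries of 41698738 to 51199207 counts were grouped by their labels, 2 per group. All 12 entered 1 fit in edgeR 4.0.16 (R 4.3.3) with TMM factors, the filterByExpr low-count filter, a mean per group and quasi-likelihood tests, with 6 residual degrees of freedom and Benjamini-Hochberg adjustment over 23238 genes. The common biological coefficient of variation was 0.149. CPM divide counts by TMM-scaled totals, and levels of different genes were compared only as CPM per kb of exon. Where a group held 1 to 3 counts, the ratio of pooled counts is given with its 95% exact interval. Where it held 0, the bound sets the group's pooled count to a floor of 3. Intervals and floors cover counting error only, since no molecular identifiers are recorded.

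All 10 genes are described. From each other list up to 4 genes called in at least 1 contrast, by lowest adjusted p, and the most abundant uncalled gene could be named. Genes marked as named after their values were seen fall outside this rule. So do the markers TRPM8, HOXB13, CD44, AXL, PTPRC and CD3E. Genes of like pattern were the 2 with the highest r for each of the 3 members with the lowest adjusted p over eGFP, among tested protein-coding genes averaging 5 CPM or more in some group. Promoters came from RefSeq (GRCh38.p14), which listed 7 of the 10 genes; IGFBP1, IGFBP7 and IGF2 were not printed. The alternatives were DESeq2's size factors, upper-quartile scaling, DESeq2 1.42.0's Wald test, limma-voom (limma 3.58.1), no low-count filter, each line fitted alone, the replicate number as a block, each library left out in turn and both PC3 replicate 2 construct libraries left out. The fit was tested on simulated counts with known changes. Some genes of the lists are counted in them but not reported here by name.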

Additional observations from a re-analysis of the deposited data

Results flagged for a closer look

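The change over eGFP differed between 22Rv1 and PC3, by edgeR's interaction test, for 6 of the 10 genes with ETV4AAA. As 22Rv1 minus PC3 on the log2 scale, the differences were 8.269 for IGFBP7 (adjusted p = 2.03e-05), 6.379 for IGFBP6 (9.45e-06), 5.498 for IGFBP4 (3.83e-06), 2.93 for IGFBP1 (0.0188), 2.398 for IGFBP5 (0.000221) and 2.221 for IGFBP3 (3.59e-06). IGFBP7 passed the low-count filter only through 22Rv1 ETV4AAA, so a larger change there was built into its being tested. With ETV4WT the difference was 1.113 for IGFBP3 (0.00146), -1.918 for IGFBP2 (0.0213) and -2.932 for IGFBP5 (6.62e-05). ETV4 itself also differed, by 3.12 ± 0.480 with ETV4AAA and 3.52 ± 0.483 with ETV4WT, and its part in these differences cannot be told apart from that of the line.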

How the results depend on the processing

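Over 57 results on the 10 genes and 1083 values of them under alternatives, 1016 kept their direction and their side of the threshold, 51 kept the direction but lost the call, 16 gained a call and 0 changed direction. A result entered this count only if it was called, or exceeded 2 standard errors, in the fit of all libraries. Pairs with both groups at 3 counts or fewer were left out. The alternatives reuse most of the same libraries, so a change of direction was unlikely from the start. The causes were not tested. In 22Rv1 the calls of IGFBP3 to IGFBP7 in ETV4AAA over eGFP held in each alternative run. Without the low-count filter the genes called numbered 904 for 22Rv1 ETV4WT (348 with it), 2152 for the PC3 libraries labelled ETV4AAA (858), and 4436 for the ETV4WT difference between lines (2903), with 2 of the 10 genes in the PC3 contrast and 5 in the difference. With each line fitted alone, the PC3 libraries labelled ETV4AAA gave 466 genes and 0 of the 10, those labelled ETV4WT 2 of the 10 (3 in DESeq2), and the contrast of both 1657 genes (2550 with all libraries, 1341 without both replicate 2 construct libraries). Without these libraries there were 589 genes for ETV4AAA and 4031 for ETV4WT over eGFP.

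Leaving out 1 library at a time gave 5259 to 7963 genes for 22Rv1 ETV4AAA, 119 (without 22Rv1 ETV4WT replicate 1) to 451 for 22Rv1 ETV4WT, and 3437 (without 22Rv1 ETV4AAA replicate 1) to 5902 for 22Rv1 ETV4AAA against ETV4WT. In PC3 it gave 213 (without eGFP replicate 1) to 2253 (without ETV4AAA replicate 1) genes and 0 to 2 of the 10 for the libraries labelled ETV4AAA, 2553 (without eGFP replicate 2) to 6396 genes and 2 to 6 of the 10 for ETV4WT, and 1648 to 2399 genes for ETV4AAA against ETV4WT. The differences between lines ranged over 2317 to 4685 genes for ETV4AAA and 1425 to 4342 for ETV4WT, both lowest without PC3 eGFP replicate 2. Where 1 library remained, it was assumed to vary like the other groups. Upper-quartile scaling moved the median of all genes by 0.339 (22Rv1 against PC3 eGFP), 0.148 (PC3 ETV4WT), -0.113 (PC3 ETV4AAA against ETV4WT), -0.102 and -0.185 (the differences between lines for ETV4AAA and ETV4WT); dropping the filter moved it by 0.103 (PC3 ETV4WT) and -0.108 (ETV4WT difference).

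The labels share replicate numbers across groups but do not say that a number marks a culture or day. Same-numbered deviations correlated between -0.591 and 0.69 in 22Rv1, between -0.495 and 0.932 in PC3, and between -0.453 and 0.839 across the lines, so the numbers were not taken to pair the libraries. With the replicate number as a block, 7421 genes and 7 of the 10 were called in 22Rv1 ETV4AAA, 351 and 1 in 22Rv1 ETV4WT, 868 and 1 in PC3 ETV4AAA, and 6296 and 6 in PC3 ETV4WT. The block ended the call of IGF1 between 22Rv1 ETV4AAA and ETV4WT (adjusted p = 0.0504), added that of IGFBP4 in PC3 ETV4WT (0.0456), and changed no other call of the 10 genes. Depth limited IGF1, IGF2, IGFBP1 and, outside 22Rv1 ETV4AAA, IGFBP7, at 84 or fewer counts in a group.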
